A study of Mus musculus with 6 samples.

Results

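This account covers 33 genes of blood-derived immune cells in embryonic mouse skin: general leukocyte genes, genes of macrophages and of Langerhans cells, a pair of T cell receptor chains and the genes of antigen presentation by MHC class II. They are 33 of 18194 genes that the array annotation ties to probe sets of a single symbol. All 33 were found, through 59 probe sets, and for each gene the probe set with the highest mean log2 signal over the 6 samples was used. The choice was by name and level, not by a difference between groups. Of the 33 genes, 27 passed the filter for dim probe sets, which kept 22518 of 45037 probe sets. Ccr2, Trem2, Itgam, Cd207, Cd3e and Cd3g did not, and they were tested only in a setting without the filter.

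The study asked how gene expression in the skin, or in the series' title its epidermis, differs between Tcfap2c mutant and control mouse embryos. There were 3 mutant and 3 control samples of skin of embryonic day 16.5, and total RNA of each was hybridised to 1 Affymetrix mouse array. Tcfap2c, now named Tfap2c, encodes the transcription factor AP-2 gamma. The mutation is not described further, neither the allele nor the cells in which it acts, and the control group is named only as control, with a description field that repeats the mutation. Strain, sex and litter are not given in the sources used here, so p-values cover no more than the spread among these 6 arrays. Values are MAS5 signals, which are probe set intensities scaled to a common trimmed mean, and differences are mutant minus control means of log2(signal + 24.5), a scale that understates the changes of dim genes. Their errors are standard errors (SE) from limma with 3 samples a group, and a call is an adjusted p under 0.05 over all 22518 probe sets.

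Skin before birth already holds a network of immune cells. Macrophages seed the dermis early in development from the yolk sac and fetal liver, depend on the CSF1 receptor, and clear dying cells with the help of scavenger receptors and complement C1q. Related precursors settle in the epidermis, where they become Langerhans cells, and these acquire langerin (Cd207) and high MHC class II only around and after birth. Fetal macrophages in general carry little MHC class II, which marks professional antigen-presenting cells of later life. T cells of the gamma delta type enter the epidermis in late gestation.

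Mutant sample 1 stood apart from the other samples, and the results below are given with and without it. Across all probe sets tested, its array correlated with the rest at 0.940 on average, and the other 5 arrays at 0.961 to 0.970. Over the 27 leukocyte genes alone these values were 0.780 against 0.904 to 0.935, correlations across genes that are not independent replicates. Of 8 decidual and uterine genes 3 had their highest signal in that sample, and the signals of the 8 summed to 49433 there against 239.9 to 543 in the other 5. Granzymes d, e, f and g, of uterine natural killer cells, were at most 12.9 in mutant sample 1. All 5 smooth muscle genes were highest there too, with a sum of 24590.3 against 2307 to 3097. Keratinocyte and fibroblast genes such as Krt5 and Col1a1 were bright in all 6 samples, as the skin label says. The 6 keratinocyte genes all had their highest signal in mutant sample 2. Their sum was 179919 there, 171841 in control sample 1 and 127345 to 143356 in the remaining samples. The probe set with the highest signal for Tfap2c itself gave 1596, 1392 and 1247 in the mutant and 1329.6, 1347 and 1193 in the control samples. These values overlapped, and since the altered part of the gene is not stated they do not check the labels.

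None of the 27 leukocyte genes tested differed between mutant and control skin by limma at an adjusted p under 0.05, where 0.00444% of all probe sets were called. Every one of the 27 had an adjusted p of 0.9999. At an unadjusted p under 0.05 there was 1 gene of 27, Fcgr2b, which was higher in the mutant, against 3.42% of all probe sets (1.45% higher and 1.97% lower). Mutant and control signals did not overlap for that 1 gene, or 3.70% of the 27, against 8.33% of all probe sets. The difference was positive for 18 genes and negative for 9, with a median of 0.073, while 44.4% of all probe sets were positive and their median was -0.025. Without mutant sample 1 the median of the 27 was -0.060, with 9 positive and 18 negative differences, and without mutant sample 2 it was 0.28, with 23 positive. The groups did not overlap for 4 genes without mutant sample 1 (Fcgr2b higher, and Ptprc, Mrc1 and Cd163 lower, against 22.7% of all probe sets). Without mutant sample 2 there were 8 (Csf1r, Adgre1, Cd68, Fcgr2b, Lyz2, Cd14, Ctss and Cd74, all higher, against 20.8%). Without mutant sample 3 there were 5 (Fcgr2b higher, and Aif1, C1qc, Fcer1g and Fcgr3 lower, against 17.8%). Without control samples 1, 2 and 3 in turn there were 2, 2 and 3 such genes, against 15.3%, 17.1% and 13.9% of all probe sets. At an unadjusted p under 0.05 there were 7 genes without mutant sample 2 (5.72% of all probe sets) and 3 without mutant sample 1 (7.15%). In either setting 0 were called by limma, against 0.00888% of all probe sets without mutant sample 2 and 0.173% without mutant sample 1. In RNA of whole skin, fewer cells of a type and less RNA per cell cannot be told apart.

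The mutant samples departed from the controls in opposite directions. Mutant sample 1 had the highest signal of the 6 samples for 19 of 27 genes, against 24.5% of all probe sets tested. Mutant sample 2 had the lowest signal for 17 of 27, against 22%, and the highest for 0, against 19.3%. The highest signal fell in mutant sample 3 for 4 genes (14.7% of all probe sets) and in control samples 1, 2 and 3 for 3, 0 and 1 (15.1%, 9.41% and 17%). The lowest fell in mutant sample 1 for 1 gene (31%), in mutant sample 3 for 0 (12.7%) and in control samples 1, 2 and 3 for 1, 4 and 4 (10.7%, 10.7% and 12.9%). Read against the controls alone, mutant sample 1 lay above all 3 control samples for 19 genes (29.5% of all probe sets) and below all of them for 4 (38.3%). Mutant sample 2 lay below all 3 for 18 genes (32%) and above all for 1 (26.5%). For mutant sample 3 these counts were 12 above (25.7%) and 3 below (25.4%). These are counts over genes of 1 sample each, with no test, and the genes share the sample. The median deviation of the 27 genes from each gene's own median over the 6 samples was 0.53 in mutant sample 1, -0.32 in mutant sample 2 and 0.10 in mutant sample 3, on the log2 scale. In control samples 1, 2 and 3 it was 0.017, -0.018 and -0.025. The high decidual and smooth muscle signals went with mutant sample 1. The keratinocyte sum was highest in mutant sample 2 (179919) and nearly as high in control sample 1 (171841). The part of these other tissues in the values was not tested. Over all 39 probe sets of the leukocyte genes that passed the filter, 23 were highest in mutant sample 1 and 23 lowest in mutant sample 2.

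**Figure D1:**
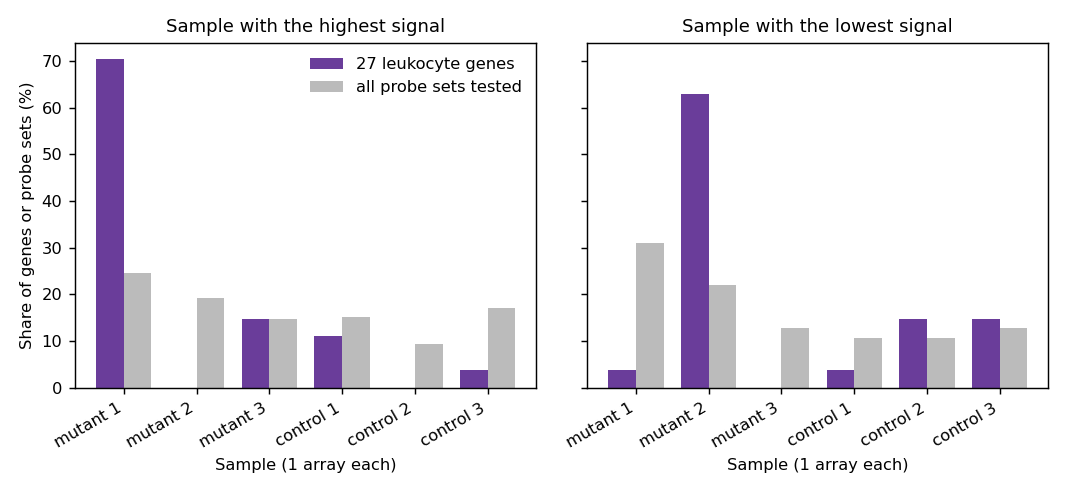
Share of 27 leukocyte genes (purple) and of all 22518 probe sets tested (grey) whose highest (left) or lowest (right) signal fell in each of the 6 samples, in percent. Mutant sample 1 held the highest signal for 19 of the 27 genes and mutant sample 2 the lowest for 17.

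**Figure D2:**
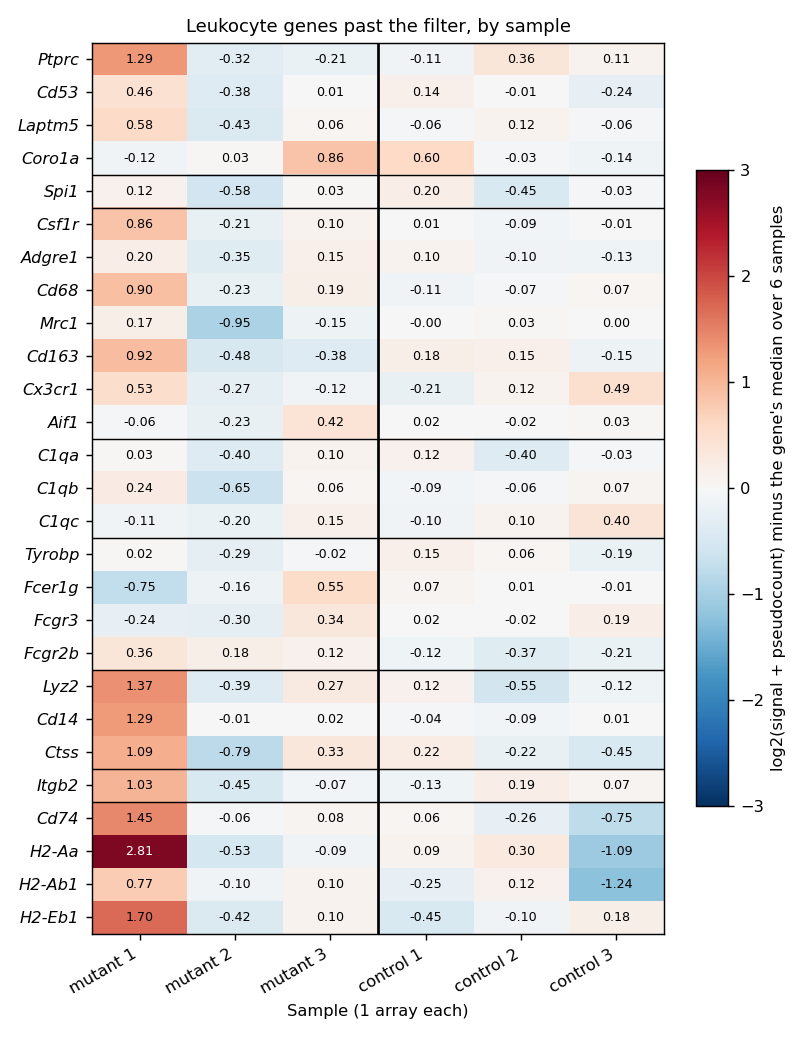
Deviation of each gene that passed the filter from its own median over the 6 samples, on the log2(signal + 24.5) scale, with 1 column per sample, genes ordered by role and horizontal lines between roles. The first column is mostly red, up to 2.81 for H2-Aa, and the second mostly blue, down to -0.95 for Mrc1.

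Genes carried by leukocytes in general overlapped between mutant and control skin. Ptprc encodes CD45, the phosphatase on the surface of nearly every white blood cell. Its MAS5 signals were 1092, 341 and 370.0 in mutant samples 1, 2 and 3 and 398, 561 and 466 in control samples 1, 2 and 3. Mutant sample 1 was 1.95 times the next highest sample, and the other mutant samples lay below every control sample. The difference was 0.14 (SE 0.39) with all samples and -0.38 without mutant sample 1 (limma adjusted p = 0.723). Cd53, a tetraspanin of leukocyte membranes, gave 1379, 759.5 and 1004 in the mutant and 1101, 984 and 837 in the control samples, which overlapped. Laptm5, a lysosomal membrane protein of blood cells, gave 1455, 709.9 and 1003 in the mutant and 923, 1046 and 921 in the control samples, also with overlap. Both were highest in mutant sample 1 and lowest in mutant sample 2, with differences of 0.071 and 0.073, and of -0.14 and -0.18 without mutant sample 1. The probe sets of Laptm5 disagreed. Of its 4 that passed the filter, the other 3 had negative differences, down to -0.58 for a probe set whose mutant signals (213, 136 and 127) all lay under its control signals (231, 217 and 291). Coro1a, an actin-binding protein of leukocytes, did not follow mutant sample 1. It gave 614, 684 and 1229.7 in the mutant and 1023, 653 and 604 in the control samples, with mutant sample 3 highest and a difference of 0.12 (SE 0.29).

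Spi1 encodes PU.1, the Ets-family transcription factor that macrophages and other myeloid cells require. Its MAS5 signals were 228, 131 and 213 in the mutant and 243, 145 and 203 in the control samples. The groups overlapped, mutant sample 2 was the lowest and control sample 1 the highest, and the difference was -0.047 (SE 0.27). PU.1 binds a core with the letters GAGGAA, read on either strand. RefSeq promoters (GRCm38.p6, 250 bases before to 50 after a gene's start) matched 24 of the 33 genes in 27 sequences. The core was present in 15 of these 27, from 14 genes (55.6%) and in 28.3% of all 32851 promoters. A match of 6 letters is a description of the window and not a binding site. A stretch upstream of the start is shown for 3 of them, C1qb, Ctss and Laptm5, in the direction of the gene, with the core in capitals. By the probe sets used, all 3 genes had their highest signal in mutant sample 1 and their lowest in mutant sample 2. Not every gene with the core was highest there: C1qc was highest in control sample 3, and Aif1 and Fcgr3 in mutant sample 3. A link between the core and the order of the samples was not tested. In Laptm5 the core lies on the opposite strand and reads TTCCTC.
C1qb: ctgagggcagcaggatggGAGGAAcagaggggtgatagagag
Ctss: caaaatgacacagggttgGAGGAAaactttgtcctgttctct
Laptm5: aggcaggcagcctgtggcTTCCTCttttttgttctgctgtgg
These are bases 48 to 7 before the start of C1qb (chr4:136886207-136886248, minus strand), 182 to 141 before that of Ctss (chr3:95526604-95526645, plus strand) and 56 to 15 before that of Laptm5 (chr4:130913260-130913301, plus strand).

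The genes of resident macrophages had overlapping signals in mutant and control skin. Of 7 that passed the filter, 6 were highest in mutant sample 1 and 7 were lowest in mutant sample 2, and the median difference was 0.032, or -0.060 without mutant sample 1. Csf1r, the receptor for CSF1 and IL-34 on which macrophages and Langerhans cells depend, gave 8353, 3951 and 4899 in mutant samples 1, 2 and 3 and 4619, 4309.7 and 4549 in control samples 1, 2 and 3. The controls lay close together, mutant sample 1 was far above them, and mutant samples 2 and 3 lay on either side. Its difference was 0.28 (SE 0.24) with all samples and -0.029 without mutant sample 1. The other probe sets of Csf1r gave smaller differences, of 0.0047 and 0.16, and were highest in mutant sample 3. Adgre1, the F4/80 antigen of tissue macrophages, gave 552, 369 and 532 in the mutant and 515, 445 and 435 in the control samples. Mutant sample 2 was the lowest, the groups overlapped, and the difference was 0.039 (SE 0.19). Cd68, a lysosomal protein of phagocytes, gave 525, 227 and 312 in the mutant and 249, 257 and 285 in the control samples, with overlap and a difference of 0.32 (SE 0.27) that was 0.013 without mutant sample 1.

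The scavenger receptors Mrc1 and Cd163 had their lowest values in mutant sample 2. Mrc1, the mannose receptor CD206 of resident macrophages, gave 3345, 1525 and 2665 in mutant samples 1, 2 and 3 and 2954, 3019 and 2973 in control samples 1, 2 and 3. The control values differed by little, mutant sample 1 lay above them and the other mutant samples below them. The difference was -0.32 (SE 0.25) with all samples, -0.56 (SE 0.20, limma adjusted p = 0.583) without mutant sample 1 and 0.0020 without mutant sample 2. Cd163, the receptor for haemoglobin bound to haptoglobin, gave 515, 181 and 195 in the mutant and 298, 292 and 233 in the control samples. Mutant sample 1 was 1.73 times the highest of the other samples, and mutant samples 2 and 3 lay under all controls. Its difference was -0.038 (SE 0.35), or -0.49 (limma adjusted p = 0.680) without mutant sample 1. Without that sample, 3 of 27 genes, Mrc1, Cd163 and Fcgr2b, had an unadjusted p under 0.05, against 7.15% of all probe sets, and none was called, against 0.173%.

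Cx3cr1, the fractalkine receptor of macrophages and their precursors, gave 597, 334 and 373 in the mutant and 347, 442 and 581 in the control samples. Control sample 3 was nearly as high as mutant sample 1, and the difference was -0.083 (SE 0.26). Aif1, the calcium-binding protein IBA1 of macrophages, gave 128, 111 and 188 in the mutant and 136, 132 and 138 in the control samples. Mutant sample 3 was the highest, mutant sample 2 the lowest, and the difference was 0.032 (SE 0.24). Ccr2, the receptor that brings monocytes from blood to tissue, did not pass the filter. Its brightest probe set gave 314, 69.5 and 103 in the mutant and 90.9, 114 and 79.7 in the control samples, so that mutant sample 1 was 2.75 times the next sample and the other mutant samples were under the highest control. Trem2, a lipid-sensing receptor of macrophages, was also under the filter, at 56.5, 82.5 and 186 in the mutant and 101, 12.4 and 11.9 in the control samples. Control samples 2 and 3 were near the lowest signals and control sample 1 was not, so the groups overlapped.

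The 3 chains of complement C1q, which macrophages make and which binds dying cells and immune complexes, had overlapping values. C1qa, the A chain, gave 703, 519 and 744 in the mutant and 751, 519 and 678 in the control samples. C1qb gave 1222, 648 and 1081 in the mutant and 973, 989 and 1089 in the control samples. C1qc gave 477, 449 and 576 in the mutant and 481, 556 and 688 in the control samples. Mutant sample 2 was lowest for C1qb and C1qc and level with control sample 2, the lowest, for C1qa. Mutant sample 1 was highest for C1qb alone. The differences were 0.012 (SE 0.20), -0.093 (SE 0.22) and -0.18 (SE 0.18), and without mutant sample 1 they were -0.045, -0.27 and -0.16. The 3 genes lie next to each other on mouse chromosome 4, in the order C1qb, C1qc and C1qa, with 0 protein-coding genes between them in RefSeq. Of the 3 probe sets of C1qb, the others gave differences of -0.21 and 0.00053. In the first of these each mutant signal (813, 659.6 and 736) lay under each control signal (814, 814 and 930.3), the highest mutant value by less than 1 unit of signal.

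Of 4 Fc receptors and signalling adaptors, 1 was highest in mutant sample 1 and 2 were highest in mutant sample 3. Tyrobp, also called DAP12, carries the activation motif for TREM2 and related receptors. It gave 1494, 1199.9 and 1443 in the mutant and 1632, 1533 and 1281 in the control samples, a difference of -0.10 (SE 0.15) with overlap. Fcer1g, the common gamma chain of activating Fc receptors, gave 478, 731 and 1206 in mutant samples 1, 2 and 3 and 859.7, 821 and 813 in control samples 1, 2 and 3. The controls were close together, mutant sample 1 was the lowest and mutant sample 3 the highest of all 6, and the difference was -0.14 (SE 0.28) with all samples and 0.17 without mutant sample 1. Fcgr3, an activating receptor for IgG that signals through that chain, gave 972, 935 and 1472 in the mutant and 1169, 1141 and 1324 in the control samples. Its order was like that of Fcer1g in mutant sample 3, the highest, while mutant samples 1 and 2 were both under all controls, and the difference was -0.13 (SE 0.19).

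Fcgr2b, the inhibitory IgG receptor, was the 1 gene of the 27 whose groups did not overlap. Its MAS5 signals were 945, 832 and 799 in mutant samples 1, 2 and 3 and 671, 562 and 631 in control samples 1, 2 and 3. The group means were 859 ± 76.3 and 621 ± 55.0 (SD, n = 3 each). The difference was 0.45 (SE 0.15), 1.37-fold on the log2 scale used, and limma's adjusted p was 0.9999. Over the settings that left out 1 sample the difference was 0.38 to 0.51, and without mutant sample 1 it was 0.38 (limma adjusted p = 0.618). The other 3 probe sets of Fcgr2b past the filter had differences of 0.37, 0.30 and 0.22, but their groups overlapped. One of them gave 1111, 353 and 428 in the mutant and 402, 459 and 408 in the control samples, with mutant sample 2 the lowest of all. When the probe sets of a gene were averaged, no gene of the 27 had groups that did not overlap. Mast cells, which also carry Fcgr2b and Fcer1g, are among the other cells of skin, and the summed signal of 6 mast cell genes was 25159 to 28155 in the mutant and 28385 to 32711 in the control samples. Each mutant sum lay under each control sum, narrowly at 28155 against 28385. Of the 6 genes only Cma1 had groups without overlap, at most 10789 in the mutant and at least 10849 in the control samples. Kit was highest in mutant sample 1 (1833). The part of mast cells in the result was not tested.

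Genes of innate defence were high in mutant sample 1. Lyz2, the lysozyme of macrophages and granulocytes, gave 2545, 735 and 1175 in mutant samples 1, 2 and 3 and 1062, 655 and 889.5 in control samples 1, 2 and 3. Mutant sample 1 was 2.17 times the next highest, and the other mutant samples lay among the controls or slightly above. The difference was 0.60 (SE 0.39), or 0.12 without mutant sample 1. Cd14, the co-receptor that hands lipopolysaccharide to TLR4, gave 512, 193 and 198 in the mutant and 189, 182 and 198 in the control samples. The 5 samples other than mutant sample 1 lay between 182 and 198, and the difference went from 0.47 (SE 0.34) to 0.041 without that sample. Ctss, cathepsin S, the protease that trims the invariant chain in antigen-presenting cells, gave 2314, 611 and 1351 in the mutant and 1248, 919 and 776 in the control samples. Mutant samples 1 and 3 lay above all controls and mutant sample 2 below all, and the difference was 0.36 (SE 0.41), or -0.077 without mutant sample 1.

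The integrins of leukocytes pair an alpha chain with the shared beta chain encoded by Itgb2 (CD18). Itgb2 gave 290.3, 88.9 and 123 in the mutant and 116, 152 and 138 in the control samples, with mutant sample 1 1.91 times the next highest and mutant sample 2 the lowest. The difference was 0.13 (SE 0.37), or -0.30 without mutant sample 1. Itgam, the CD11b chain of myeloid cells, did not pass the filter and gave 69.9, 101 and 66.7 in the mutant and 142, 55.7 and 87.2 in the control samples, with the controls spanning the mutant values.

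**Figure D3:**
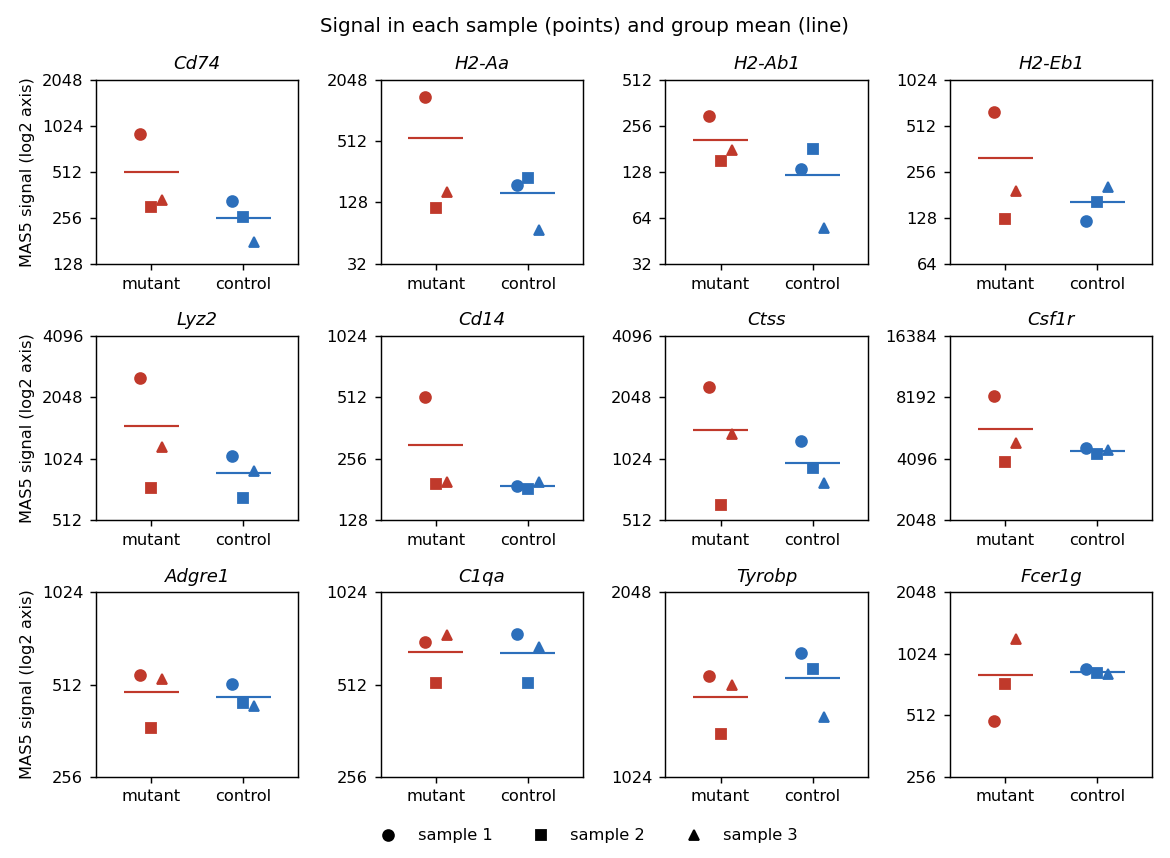
MAS5 signal of 12 genes in each mutant (red) and control (blue) sample, on a log2 axis that does not start at 0, with marker shapes for sample numbers and lines at the group means. In the 4 MHC class II genes and in Lyz2, Cd14, Ctss and Csf1r mutant sample 1 stands above the other 5, while in Tyrobp and Fcer1g it does not.

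The MHC class II genes Cd74, H2-Aa and H2-Ab1 had the 3 largest differences of the 27, and those of all 4 class II genes were smaller or negative without mutant sample 1. Cd74 encodes the invariant chain, which guides class II molecules to the endosome. Its MAS5 signals were 899.9, 301 and 335 in mutant samples 1, 2 and 3 and 329, 259.7 and 177 in control samples 1, 2 and 3. Mutant sample 1 was 2.69 times the next highest sample, and mutant samples 2 and 3 lay within or just above the range of the controls. H2-Aa, the alpha chain of the I-A molecule, gave 1374, 114 and 162 in mutant samples 1, 2 and 3 and 188, 221 and 68.9 in control samples 1, 2 and 3. Here mutant sample 1 was 6.22 times the next highest, the widest such gap of the 27 genes, and mutant samples 2 and 3 lay among the controls. H2-Ab1, the beta chain of I-A, gave 295, 151 and 176 in the mutant and 133, 179 and 55.0 in the control samples, and control sample 3 was the lowest. H2-Eb1, the beta chain of I-E, gave 629, 125 and 191 in the mutant and 122, 162 and 203 in the control samples, with mutant samples 2 and 3 inside the range of the controls.

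The differences for Cd74, H2-Aa, H2-Ab1 and H2-Eb1 were 0.81 (SE 0.39), 0.96 (SE 0.78), 0.71 (SE 0.38) and 0.59 (SE 0.48), and all overlapped between groups. Their median was 0.76, and 0.15 without mutant sample 1, where the differences were 0.33, -0.079, 0.46 and -0.036. Without control sample 3 they were 0.59, 0.53, 0.32 and 0.74, so that the difference of H2-Ab1 was at its smallest there. Over all settings with 1 sample left out, it ranged up to 1.002, and that of Cd74 ranged from 0.33 to 1.08. All 4 probe sets of H2-Aa and all 3 of H2-Ab1, dim ones included, were highest in mutant sample 1. The summed decidual and smooth muscle signals given above were high in the same sample, and their part in these values was not tested. Control sample 3 was the lowest of the 6 for Cd74, H2-Aa and H2-Ab1, and not for H2-Eb1. H2-Ab1, H2-Aa and H2-Eb1 are neighbours on chromosome 17, with 0 protein-coding genes between them in RefSeq.

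Class II genes share a promoter arrangement, an X box followed by an inverted CCAAT element called the Y box, through which the co-activator CIITA acts. It is shown for H2-Aa and H2-Eb1. The promoters of H2-Ab1 and Cd74 were not searched. Each line runs in the direction of its gene, and capitals mark first the X box core, searched as GCAACT, and then the Y box core, searched as TGATTGG.
H2-Aa: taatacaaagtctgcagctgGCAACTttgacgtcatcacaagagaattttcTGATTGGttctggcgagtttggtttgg
H2-Eb1: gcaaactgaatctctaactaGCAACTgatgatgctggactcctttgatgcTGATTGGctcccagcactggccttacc
The first is chr17:34287847-34287924 on the minus strand, 101 to 24 bases before the start of H2-Aa, and the second is chr17:34305756-34305832 on the plus strand, 111 to 35 bases before that of H2-Eb1 (GRCm38.p6). The cores begin 31 bases apart in H2-Aa and 30 in H2-Eb1. Searched on both strands, TGATTGG was in 7.82% and GCAACT in 10.9% of all 32851 promoters. Both in this order on the gene's strand, with starts within 60 bases, were in 19 promoters (0.0578%). Among the 24 leukocyte genes whose promoters were searched, those with both were H2-Aa and H2-Eb1.

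Genes that define Langerhans and T cells were dim in all 6 samples. Cd207, langerin, the lectin of Langerhans cell granules, gave 43.3, 25.7 and 13.3 in mutant samples 1, 2 and 3 and 11.9, 5.61 and 45.0 in control samples 1, 2 and 3. The signal that a probe set needed on average to pass the filter was about 114, so every value lay below it, and the groups overlapped. Cd3e, a chain of the T cell receptor complex, gave 16.3, 19.4 and 11.1 in the mutant and 45.5, 9.52 and 43.0 in the control samples, with overlap. Cd3g, another chain of that complex, gave 11.3, 4.47 and 6.65 in mutant samples 1, 2 and 3 and 83.5, 37.7 and 47.7 in control samples 1, 2 and 3. All 3 mutant values lay under all 3 control values, which without the filter held for 4.54% of all probe sets. Tested without the filter, its difference was -1.30 (SE 0.31) (limma adjusted p = 0.880). In that setting 0 of the 33 genes were called, against 0.00222% of all probe sets, and 2 of 33 (Cd3g and Fcgr2b) had an unadjusted p under 0.05, against 4.01%. The third chain, Cd3d, was at most 9.60 in any sample.

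Other genes of the same cells and pathways, 116 in 9 lists, were measured beside them, and 0 of the 65 that passed the filter were called by limma (adjusted p). Named in each list are the 2 tested genes of smallest p, a choice that favours groups without overlap. Groups did not overlap for 2 of 5 growth factor and chemokine, 1 of 16 macrophage and 1 of 18 signalling genes. They did not for 1 of 9 transcription factor, 2 of 9 antigen presentation and 1 of 2 T and NK cell genes. Among 4 complement and 3 neutrophil genes there were 0, and the share of all probe sets was 8.33%. Il34 and Csf1, the ligands of Csf1r, and chemokines formed the first list. Of its 5 tested genes, 2 were positive and 3 negative (median -0.13). Il34, the ligand that keratinocytes make for Langerhans cells, gave 130.1, 211 and 194 in mutant samples 1, 2 and 3 and 279.6, 215 and 249 in control samples 1, 2 and 3. All mutant values lay under all control values, as for 5.03% of all probe sets, which were not picked by p. The difference was -0.44 (SE 0.23, limma adjusted p = 0.9999). Tgfb1, a growth factor that Langerhans cells also need, gave 432, 505 and 477 in the mutant and 537, 562 and 588 in the control samples, likewise without overlap, and a difference of -0.25 (SE 0.15). Without mutant sample 1 these differences were -0.26 and -0.19.

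Antigen presentation genes other than the members had 8 positive and 1 negative difference among 9 tested (median 0.38, or 0.21 without mutant sample 1). B2m, the light chain of MHC class I, gave 8223, 8638 and 6460.1 in the mutant and 7049.5, 5643 and 5229 in the control samples. Mutant samples 1 and 2 lay above all controls and mutant sample 3 did not, and the difference was 0.38 (SE 0.16). H2-K1, a class I heavy chain, gave 3345, 1874 and 1561 in the mutant and 1478, 1428 and 1519 in the control samples. Each mutant value lay above each control value, as for 3.3% of all probe sets, which were not picked by p. The difference was 0.53 (SE 0.25), or 0.21 without mutant sample 1. Class I genes are a large family of near-identical members, so their probe sets can share signal. Ciita, the class II co-activator, did not pass the filter, with signals of 59.8, 41.2 and 91.6 in the mutant and 119, 84.5 and 67.0 in the control samples, and mutant sample 1 was not high.

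The 16 tested macrophage genes outside the 33 had a median difference of 0.031, with 9 positive and 7 negative, and -0.10 without mutant sample 1. Cd86, a co-stimulatory ligand, gave 135, 149 and 144 in the mutant and 80.5, 109 and 104 in the control samples, without overlap and with a difference of 0.46 (SE 0.23). Cybb, the catalytic subunit of the phagocyte oxidase, differed by 0.60 (SE 0.32), with overlap. Of 18 signalling and adaptor genes 7 were positive and 11 negative (median -0.050). Icam1, a ligand of the beta-2 integrins, differed by -0.29, without overlap, and Fcgr1, the high-affinity IgG receptor, by 0.39, with overlap. Among 9 leukocyte transcription factors the median was 0.043, with 5 positive and 4 negative. Ikzf1, which acts in lymphoid development, differed by -0.23, without overlap, and Batf3, of a dendritic cell subset, by 0.34, with overlap.

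Complement genes other than C1q split 2 to 2 (median 0.068), with 0.15 for C2 and -0.20 for C1ra. Of 14 T and NK cell genes 2 passed the filter. Thy1, which fibroblasts and neurons carry as well as T cells, gave 1168, 1589 and 1280.1 in mutant samples 1, 2 and 3 and 2494, 2104 and 2333 in control samples 1, 2 and 3. Each mutant value lay under each control value, and the difference was -0.78 (SE 0.15, limma adjusted p = 0.426), or -0.68 (limma adjusted p = 0.142) without mutant sample 1. Cd8a, measured by an _x_at probe set, gave a difference of 0.65, with overlap. Other T cell genes were dim, with Cd4 at most 53.7 and Cd2 at most 34.8 in any sample. None of 6 B cell genes passed the filter. The 3 neutrophil genes that did were negative, S100a8 by -0.35 and S100a9 by -0.087 among them, and both also come from keratinocytes.

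**Figure D4:**
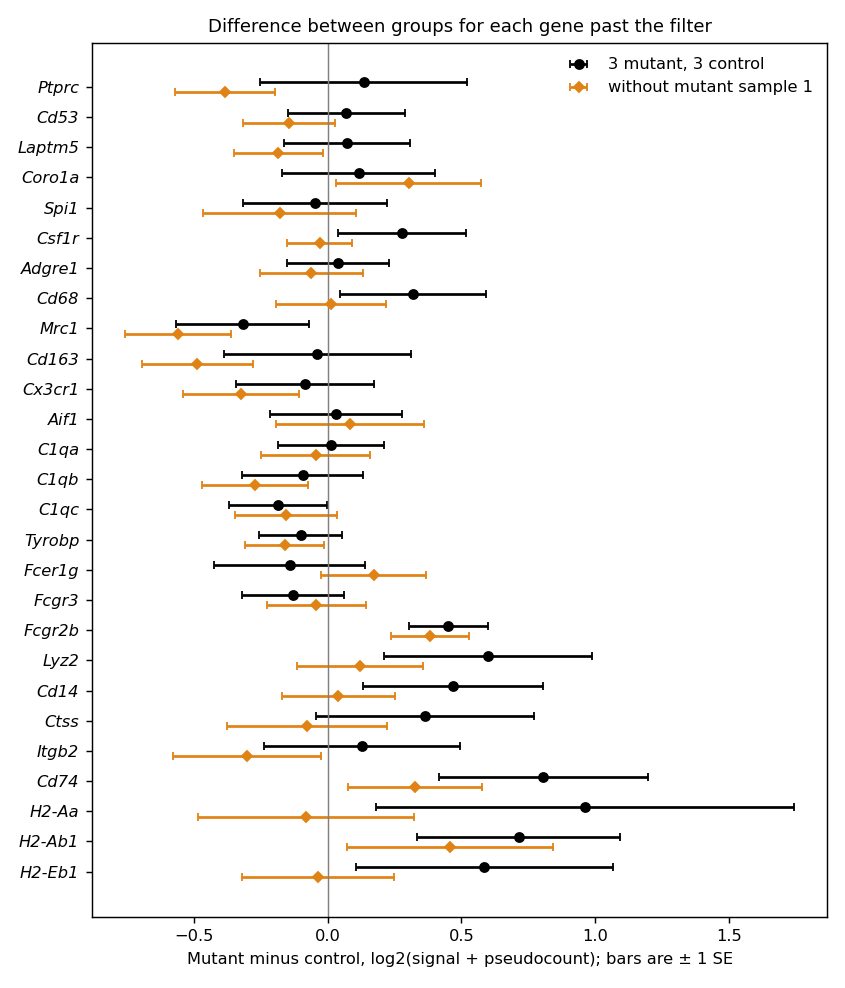
Mutant minus control difference of each leukocyte gene past the filter on the log2(signal + 24.5) scale, with all 6 samples (black circles) and without mutant sample 1 (orange diamonds), and bars of 1 SE to each side. Without mutant sample 1 the difference of H2-Aa goes from 0.96 to -0.079 and that of Cd163 from -0.038 to -0.49, while Fcgr2b stays positive in both.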

How the data were processed

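RNA of 3 mutant and 3 control skin samples, grouped by sample title, was extracted with a Qiagen kit per the labels' protocols. The authors deposited 1 intensity for each probe set and array, on a linear scale, made with MAS5 per the submitters' processing notes. Each array's mean, trimmed by 2% at both ends, was 500.003. Precision is limited by having 3 arrays a group.

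A pseudocount of 24.5, the 20th percentile of all values, was added before taking log2. Without the 64 control probe sets of the manufacturer, those with a mean log2 above the median (a signal of about 114) were tested. The platform annotation gave 1 symbol for 34958 probe sets, several for 932 and none for 9211, and 34754 matched a RefSeq gene (GRCm38.p6). The two-sided test was limma 3.58.1 (R 4.3.3), with lmFit, a trend in eBayes, p-values adjusted after Benjamini-Hochberg across the whole table and a threshold of 0.05, tried first on simulated data. All 33 members are named, and in each related list the 2 tested genes of smallest p. Members, lists and rules were chosen with earlier results of these data known. Alternatives were other pseudocounts, filters, normalizations, variance models, array weights, probe set rules, a threshold of 0.1, the replicate number as a block and each sample left out. The use of 1 probe set per gene before adjustment was added after seeing the data. Figures used matplotlib 3.10.9.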

Additional observations from a re-analysis of the deposited data

How the results depend on the processing

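No leukocyte gene passed the threshold in any of the 19 other settings run, where the lowest adjusted p was 0.276, with array weights. The members' median difference was 0.073 with all samples, -0.060 to 0.28 with 1 sample left out (lowest without mutant sample 1, highest without mutant sample 2), 0.14 with array weights and -0.038 over 19 genes without _s_at, _x_at and _a_at probe sets. All lay within 0.23 of the value with all samples, the SD between samples of a group in the genes' median. Mutant and control signals did not overlap for 1 gene with all 6 samples, and for 2 to 8 genes once a sample was left out, where fewer samples make this easier. There were 4 without mutant sample 1 (22.7% of all probe sets) and 8 without mutant sample 2 (20.8%). There were 2 of 33 without the filter (8.9% of all probe sets), 2 of 19 without _s_at, _x_at and _a_at probe sets (8.56%), and 0 of 27 with a gene's probe sets averaged (8.54% of all genes). Of 424 single-gene differences under alternatives, 38 in 19 genes had the other sign, none past the threshold. The cause was not tested. Array weights gave such values for Ptprc (-0.25), Spi1 (0.053), C1qb (0.0014), Fcer1g (0.34), Fcgr3 (0.16) and Itgb2 (-0.10). Laptm5 was -0.24 averaged over its probe sets and -0.58 without _s_at, _x_at and _a_at ones. With 1 sample left out, the difference ranged from -0.38 to 0.42 for Ptprc, -0.14 to 0.28 for Cd53, -0.18 to 0.32 for Laptm5, -0.18 to 0.34 for Coro1a, -0.23 to 0.17 for Spi1, -0.029 to 0.51 for Csf1r, -0.060 to 0.21 for Adgre1, -0.56 to 0.0020 for Mrc1, -0.49 to 0.21 for Cd163, -0.32 to 0.10 for Cx3cr1, -0.16 to 0.17 for Aif1, -0.14 to 0.17 for C1qa, -0.27 to 0.17 for C1qb, -0.47 to 0.17 for Fcer1g, -0.077 to 0.86 for Ctss, -0.30 to 0.44 for Itgb2, -0.079 to 1.59 for H2-Aa and -0.036 to 1.03 for H2-Eb1. With the replicate number as a block 0 of 27 genes passed, against 0.0355% of all probe sets, 3 had an unadjusted p under 0.05, against 3.06%, and the median stayed at 0.073. Samples with the same number deviated from their group means with correlations of -0.052, -0.073 and 0.11, so the numbers were not taken as pairs.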

Other observations

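Csf1, the growth factor of macrophages and a ligand of Csf1r, had signals of 2593, 352 and 413 in mutant samples 1, 2 and 3 and 585, 502 and 540.4 in control samples 1, 2 and 3. It was chosen after its values were seen. Mutant sample 1 was the highest, the other mutant samples lay under all controls, and the groups overlapped. The difference was 0.42 (SE 0.62), or -0.48 (limma adjusted p = 0.567) without mutant sample 1. Il34, the other ligand, had its lowest signal in mutant sample 1.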
